A study of Homo sapiens with 3 samples.

Results

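The genes described here are RNF213, LIMCH1, NCAPD3, MIA3, MAST2, IGF2R, UBE3C, TRRAP and SMARCC1, the 9 genes that lie under the longest runs of H3K36me3 peaks in LNCaP cells. They were chosen from the measured peaks themselves. Peaks of the DHT and the untreated library that lay at most 5 kb apart were joined into blocks, and genes under the longest blocks were taken. Of 9168 joined blocks of at least 10 kb, these genes hold ranks 1 to 3 and 5 to 10 by length. Their gene bodies, given in hg19 rounded to whole kb, span 1432 kb and hold 375 of 131798 DHT peaks and 338 of 117564 untreated peaks. Block lengths and covered lengths of these genes are therefore a description, and nothing is supported with them.

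LNCaP is an established human prostate cancer cell line that responds to androgen. H3K36me3 was mapped by chromatin immunoprecipitation and sequencing (ChIP-seq) in 1 library of cells given 100 nM dihydrotestosterone (DHT), a potent androgen, for 4 h in red-free RPMI, and in 1 library of cells labelled as having no treatment. Both came from cells kept in RPMI with 10% serum. The medium named for the DHT cells cannot be told apart from the hormone. With 1 library per condition there is no replicate, so no test between conditions could be made and no p-value is given. An input library without antibody was not analysed here. The deposited lists hold no read numbers, and how deeply either library was sequenced is unknown.

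H3K36me3 is trimethylation of lysine 36 on histone H3. The enzyme SETD2 travels with elongating RNA polymerase II and places the mark behind it, so that transcribed gene bodies carry it and it commonly increases towards their ends. Because it follows elongation, long transcribed genes carry it as broad domains, which a caller of narrow peaks such as MACS divides into many separate peaks. The 9 genes differ in function. SMARCC1, TRRAP and NCAPD3 act on chromatin and chromosomes, UBE3C and RNF213 are ubiquitin ligases, IGF2R and MIA3 work in protein transport, and LIMCH1 and MAST2 act on the cytoskeleton or bind it.

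The mark covered a similar length of these genes in both libraries. Peaks covered 229 kb after DHT and 235 kb in untreated cells, which is 16.0% and 16.4% of the 9 gene bodies. Covered length after DHT was 0.976 times that in untreated cells (95% counting interval 0.798 to 1.19), against 1.03 times (1.01 to 1.04) over all nuclear peaks. This ratio was above 1 in 3 genes (NCAPD3, RNF213 and IGF2R) and below 1 in 6, and no gene's interval excluded 1. These intervals treat peaks as independent and cover counting error only, not the spread between libraries. The direction of the summed ratio depended on the peak list, reaching 1.16 with scores of at least 100.

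Block length was measured on the peaks of both libraries joined together. The longest, at SMARCC1, measured 142994 bp, followed by UBE3C with 115311 bp and MIA3 with 115256 bp. NCAPD3 had 101310 bp, IGF2R 99545 bp, RNF213 99451 bp, TRRAP 97753 bp, MAST2 97593 bp and LIMCH1 96674 bp. The block of rank 4, on chromosome 7 from 151783186 to 151890965 (107780 bp), lies over none of the 9 genes. Just outside the list was rank 11, on chromosome 5 from 70753137 to 70846896, with 93760 bp. For comparison, the median joined block of at least 10 kb was 16296 bp long.

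Joined within a single library, the same stretches were shorter and differed between the libraries. The longest run over these blocks had a median of 46097 bp in the DHT library and 34990 bp in the untreated library. At IGF2R, DHT peaks formed 1 run of 96619 bp, the longest in that library, while untreated peaks formed 7 runs, the longest of 16882 bp and of rank 1433 in its own list. TRRAP also formed 1 run of 87799 bp after DHT, rank 2 of its list, against 46765 bp and rank 23 in untreated cells. RNF213 had 48926 bp after DHT and 13469 bp in untreated cells, with ranks 27 and 2504. The order was the other way round at UBE3C, with 39747 bp after DHT and 69215 bp (rank 5) in untreated cells. MIA3 had 28293 bp after DHT and 53137 bp in untreated cells, and MAST2 had 14375 and 22815 bp. At NCAPD3 the runs were 53067 bp after DHT and 35306 bp in untreated cells, at SMARCC1 46097 and 34990 bp, and at LIMCH1 38129 and 31571 bp. A single gap over 5 kb ends a run, so run length can differ by several fold where covered length does not. At IGF2R the block held 31660 bp of DHT peaks and 28992 bp of untreated peaks.

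**Figure D1:**
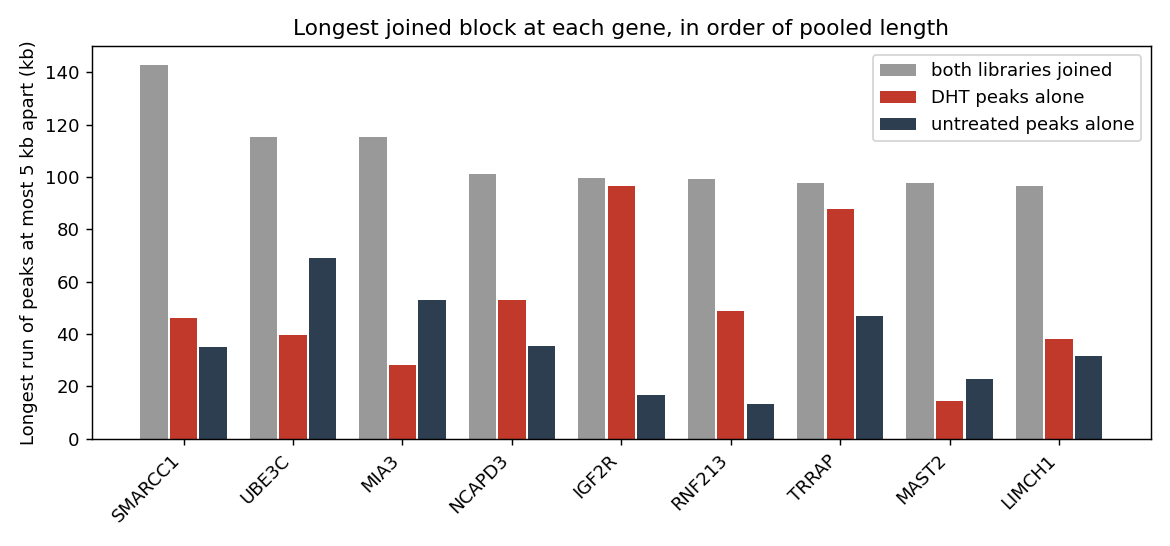
Longest run of peaks at most 5 kb apart at each block, in kb on the y axis, for both libraries joined (grey), DHT peaks alone and untreated peaks alone. At IGF2R and TRRAP the DHT bar nearly reaches the grey one (96619 of 99545 bp and 87799 of 97753 bp), and at UBE3C and MIA3 the untreated bar is the taller of the single-library bars.

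Covered length within the 9 blocks was close between the libraries. The DHT over untreated ratio ran from 0.711 at LIMCH1 to 1.26 at RNF213 and was 1.003 at SMARCC1. None of the 9 was at least 2-fold higher or lower after DHT. Among all 2676 blocks of at least 10 kb in which peaks of 1 of the libraries covered 5 kb or more, 8.07% were 2-fold higher and 2.73% were 2-fold lower. The 9 blocks were chosen by their length after peaks of both libraries were joined, so nothing is read from this count.

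SMARCC1 encodes BAF155, a core subunit of the SWI/SNF chromatin remodelling complexes. On chromosome 3 from 47627001 to 47823000, transcribed from the minus strand, it held 56 peaks covering 26481 bp (13.5%) after DHT and 57 peaks covering 29184 bp (14.9%) in untreated cells. Median peak width was 396 bp after DHT and 446 bp in untreated cells, against 354 and 374 bp over all peaks. Each gene body was divided into 10 equal bins from start to end. Covered share in bins 1 to 5 and in bins 6 to 10 was 13.4% and 13.6% after DHT, and 14.7% and 15.1% in untreated cells. Both libraries lacked peaks over almost the same stretch, from 11.4 to 24.3 kb after the start in the DHT library and from 11.4 to 24.2 kb in the untreated library. The highest-scoring peak of the gene lay 67.4 kb from the start after DHT and 61.7 kb from it in untreated cells. The long block covered 62.1% of the gene, beginning 74.2 kb after the start and running 21.2 kb past the end. The next protein-coding gene beyond the end in RefSeq order is CSPG5.

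TRRAP is the large scaffold subunit of the SAGA and TIP60 histone acetyltransferase complexes. On chromosome 7 from 98476001 to 98611000 it held 47 peaks covering 35819 bp (26.5%) after DHT and 41 peaks covering 39694 bp (29.4%) in untreated cells. Of the 9 genes it had the highest shared part, with 49.7% of all sequence covered in either library covered in both. After DHT bins 1 to 5 were covered to 14.7% and bins 6 to 10 to 38.4%, against 25.3% and 33.5% in untreated cells. DHT peaks thus covered less of its early part and more of its late part than untreated peaks did, and bin 2 was covered to 12.2% after DHT and 29.7% in untreated cells. A 10 kb tile from 14 to 24 kb after the start held 1281 bp of DHT peaks and 2603 bp of untreated peaks. TRRAP carried the highest score among the 9 genes, 558, at a DHT peak of 539 bp on chromosome 7 from 98530766 to 98531304 that untreated peaks covered in full. The last peak crossed the gene end by 1.61 kb after DHT and by 2.40 kb in untreated cells.

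NCAPD3 encodes a subunit of condensin II, which compacts chromosomes for division. On chromosome 11 from 134022001 to 134094000, minus strand, it held 28 peaks covering 19203 bp (26.7%) after DHT and 26 peaks covering 15038 bp (20.9%) in untreated cells. Its ratio of 1.28 (0.670 to 2.43) was the highest of the 9. It was the only gene that lay within 1 block along its whole length, and that block began 22.6 kb before its start and ran 6.68 kb past its end. It was also the only one of the 9 with a peak over its start as rounded to whole kb: the first DHT peak began 0.672 kb before that position, whereas the first untreated peak in the body lay 4.57 kb after it. Whether that peak crosses the true start is not resolved at this rounding. The widest DHT peak, 2279 bp on chromosome 11 from 134041606 to 134043884, had no untreated peak. In bin 10, at the end, coverage was 35.6% after DHT and 5.93% in untreated cells, whereas bin 9 was covered to 39.1% and 52.8%. Over the 72 bins of 1 kb of NCAPD3, covered length in the libraries correlated at r = 0.333, the lowest of the 9, given as a description. By the part covered in both libraries, 34.4% of the sequence covered in either, NCAPD3 was not the lowest. That part was 30.8% at MAST2 and 32.0% at LIMCH1. RefSeq lists JAM3 and VPS26B overlapping NCAPD3, so peaks near its edges cannot be assigned to 1 gene.

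The letters before the start of NCAPD3 are shown because the first DHT peak lay at its rounded start, and those of IGF2R because its early part differed between the libraries. Each is the 250 bases upstream of a RefSeq start in GRCh38.p14, whose coordinates were not converted to hg19. RefSeq lists 2 starts for NCAPD3 on chr11, minus strand, the first at chr11:134225462-134225711 and the second at chr11:134223968-134224217, and 1 for IGF2R, at chr6:159968832-159969081 on the plus strand. Capitals mark GGGCGG or its reverse complement CCGCCC, the GC box bound by Sp1-type factors, searched on both strands with overlaps counted.
NCAPD3 first start: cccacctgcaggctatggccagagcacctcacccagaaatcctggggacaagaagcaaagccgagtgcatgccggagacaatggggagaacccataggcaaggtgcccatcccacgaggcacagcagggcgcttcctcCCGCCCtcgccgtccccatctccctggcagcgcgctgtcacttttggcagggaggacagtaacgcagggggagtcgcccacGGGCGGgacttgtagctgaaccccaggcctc
NCAPD3 second start: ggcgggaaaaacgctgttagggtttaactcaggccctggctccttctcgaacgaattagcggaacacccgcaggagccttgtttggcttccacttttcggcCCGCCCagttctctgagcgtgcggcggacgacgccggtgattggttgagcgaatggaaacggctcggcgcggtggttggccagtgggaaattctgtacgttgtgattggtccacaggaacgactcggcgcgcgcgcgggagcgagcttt
IGF2R start: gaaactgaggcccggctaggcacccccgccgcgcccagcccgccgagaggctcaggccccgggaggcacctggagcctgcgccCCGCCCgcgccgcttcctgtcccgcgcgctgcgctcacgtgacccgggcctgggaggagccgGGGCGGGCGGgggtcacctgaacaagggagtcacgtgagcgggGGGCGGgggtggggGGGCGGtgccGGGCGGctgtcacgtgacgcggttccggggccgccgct
The IGF2R window held 6 GC boxes and 33 CG dinucleotides, and the NCAPD3 windows held 2 and 1 GC boxes with 13 and 28 CG dinucleotides. Over 35116 RefSeq windows of the same length, 42.6% held a GC box and the median number of CG dinucleotides was 11. Of the 9 genes 7 had an entry, with 12 starts in all, 7 of them with a GC box. A match describes these letters and shows neither a bound factor nor a cause.

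UBE3C, a ubiquitin ligase of the HECT class, lies on chromosome 7 from 156932001 to 157062000. It held 40 peaks covering 20433 bp (15.7%) after DHT and 35 peaks covering 21883 bp (16.8%) in untreated cells. Peaks began 1.17 kb after the start in the DHT library and 1.59 kb after it in the untreated library, the earliest untreated first peak of the 9. Coverage was 15.8% in bins 1 to 5 and 15.7% in bins 6 to 10 after DHT, against 13.9% and 19.8% in untreated cells. Bin 7 showed the widest gap between the libraries, with 14.0% after DHT and 30.6% in untreated cells. There a 10 kb tile from 78 to 88 kb after the start held 1570 bp of DHT peaks and 3188 bp of untreated peaks. Its highest-scoring DHT peak, scoring 437 and lying 110 kb from the start, was covered in full by untreated peaks.

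RNF213 is a giant ring-finger ubiquitin ligase with an ATPase module, known as a susceptibility gene for moyamoya disease of brain arteries. On chromosome 17 from 78235001 to 78373000 it held 30 peaks covering 41054 bp (29.7%) after DHT and 21 peaks covering 34867 bp (25.3%) in untreated cells. These were the widest peaks of the 9 genes, with medians of 899.5 bp after DHT and 1219 bp in untreated cells, against 354 and 374 bp over all peaks. Peaks of at least 2 kb made up 48.2% of its covered length after DHT and 56.4% in untreated cells. In bin 7 it reached 59.5% after DHT, the most covered bin of any of these genes in either library, and 40.1% in untreated cells. In bin 10 coverage was 55.1% after DHT and 21.8% in untreated cells. A DHT peak of 6494 bp on chromosome 17 from 78358892 to 78365385 lay mostly there, and untreated peaks covered 33.8% of it. The widest untreated peak, 5533 bp from 78318463 to 78323995, was covered to 96.0% by DHT peaks. The stretch from 13.4 to 30.1 kb after the start had no untreated peak, and that from 19.99 to 33.5 kb had no DHT peak. RefSeq also lists RNF213-AS1, an antisense RNA, over this gene, and peaks do not tell the strands apart.

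IGF2R encodes the cation-independent mannose-6-phosphate receptor, which carries lysosomal enzymes and takes up insulin-like growth factor 2. On chromosome 6 from 160390001 to 160528000 it held 46 peaks covering 32497 bp (23.5%) after DHT and 27 peaks covering 27703 bp (20.1%) in untreated cells. Its number of peaks differed most, 1.70 times as many after DHT, while its covered length ratio was 1.17 (0.647 to 2.13). The median gap between neighbouring peaks was 1569 bp after DHT and 3449 bp in untreated cells. The first 10 kb held 1133 bp of DHT peaks and 263 bp of untreated peaks, and the first peaks lay 2.65 and 6.01 kb after the start. Coverage in bins 6 to 10 was 32.6% after DHT and 24.7% in untreated cells, against 14.5% and 15.5% in bins 1 to 5. The widest peaks of the libraries nearly coincided, a DHT peak of 3319 bp from 160498853 to 160502171 and an untreated peak of 3147 bp from 160498823 to 160501969. They were also among its strongest, scoring 382 and 323. The block ran 17.3 kb past the gene end. The antisense RNA AIRN also overlaps IGF2R.

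MIA3, also called TANGO1, helps export collagens and other large cargo from the endoplasmic reticulum. On chromosome 1 from 222791001 to 222841000, the shortest of the 9, it held 14 peaks covering 7075 bp (14.2%) after DHT and 17 peaks covering 9302 bp (18.6%) in untreated cells. Its ratio of 0.761 (0.352 to 1.64) was the lowest of the 9. Of the sequence covered after DHT 71.0% was also covered in untreated cells, and of that covered in untreated cells 54.0% was also covered after DHT. The correlation over its 50 bins of 1 kb was the highest of the 9 (r = 0.607). Bin 9 had no DHT peak and was covered to 6.96% in untreated cells. From 9 to 19 kb after the start, 1051 bp were covered after DHT and 2770 bp in untreated cells. Its block lay mostly beyond the gene, with 40.3% of the block inside MIA3 and 68.8 kb past its end. In that outer part 12266 bp were covered after DHT and 12950 bp in untreated cells. AIDA and BROX are the next protein-coding genes in RefSeq order.

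LIMCH1 encodes an actin-associated activator of non-muscle myosin II. It is the longest of the 9, on chromosome 4 from 41362001 to 41702000, and held 89 peaks in each library. They covered 34360 bp (10.1%) after DHT and 42422 bp (12.5%) in untreated cells. Median peak width was 349 bp after DHT and 419 bp in untreated cells. The widest peak measured 861 bp after DHT and 1674 bp in untreated cells, and neither library had a peak of at least 2 kb. The gene fell into 12 blocks, 7 of them 10 kb or longer, and the longest covered 27.6% of it, at its end. In bins 6 to 10 coverage was 9.66% after DHT and 14.4% in untreated cells, while in bins 1 to 5 it was 10.6% in both libraries. Between 298 and 308 kb after the start, 349 bp were covered after DHT and 2125 bp in untreated cells, the tile with the largest fold among the 9 genes. Its widest DHT peak lay 1.504 kb from the start and had no untreated peak. RefSeq gives 4 starts for LIMCH1, and which of them LNCaP cells use cannot be read from peaks.

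MAST2 encodes a serine/threonine kinase that associates with microtubules. On chromosome 1 from 46269001 to 46502000 it was the least covered, with 25 peaks in each library over 12024 bp (5.16%) after DHT and 14549 bp (6.24%) in untreated cells. Its coverage was highest at the end: bin 10 was covered to 23.7% after DHT and 30.1% in untreated cells, and the other 9 bins to at most 6.69% and 7.30%. Untreated cells had no peak from 33.8 to 121 kb after the start. After DHT the widest empty stretch was 36.1 to 68.6 kb, and scattered peaks lay beyond it. The widest untreated peak, 4507 bp on chromosome 1 from 46494273 to 46498779, was covered to 56.8% by DHT peaks. The block over MAST2 covered 12.9% of the gene and ran 67.4 kb past its end, with 8275 bp covered there after DHT and 9310 bp in untreated cells. PIK3R3 is a downstream neighbour in RefSeq order. MAST2 is thus a member through the end of its body and the sequence beyond it.

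**Figure D2:**
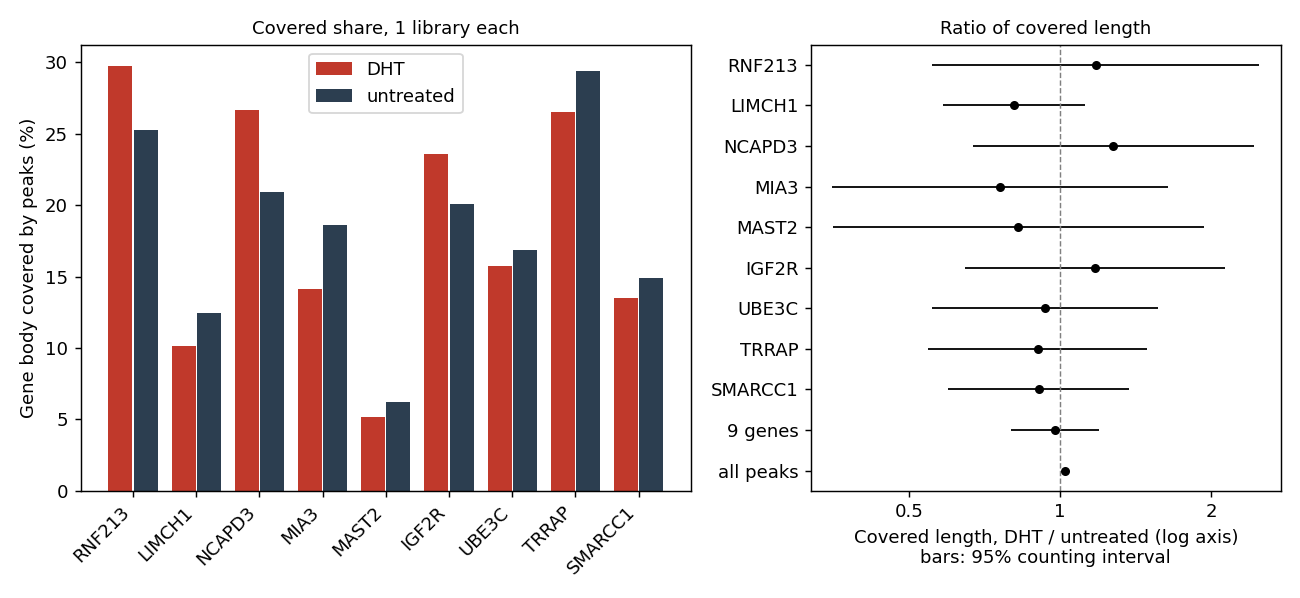
Left, share of each gene body covered by peaks in percent, DHT beside untreated, 1 library each. Right, covered length after DHT divided by that in untreated cells, on a log axis with 95% counting intervals; the interval of every gene spans 1, and the 9 genes together lie at 0.976.

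Coverage thus separated the genes more than the libraries did. By covered share after DHT the order was RNF213, NCAPD3, TRRAP, IGF2R, UBE3C, MIA3, SMARCC1, LIMCH1 and MAST2. In untreated cells TRRAP came first and MIA3 stood above UBE3C, while RNF213, NCAPD3, TRRAP and IGF2R were again above 20%. With no replicate, which neighbours in these orders differ beyond the spread between libraries is unknown. Covered share ranged from 5.16% to 29.7% after DHT and from 6.24% to 29.4% in untreated cells, whereas the libraries differed by -4.45 to 5.78 percentage points within a gene.

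Coverage was mostly higher in the later part of the gene bodies. Apart from the NCAPD3 peak after DHT, the first peak lay 1.07 to 4.11 kb after the start in the DHT library and 1.59 to 6.01 kb after it in the untreated library. The gene starts are rounded to whole kb, so distances under 1 kb are not resolved. Bins 6 to 10 were covered more than bins 1 to 5 in 7 of 9 genes after DHT, the exceptions being LIMCH1 and UBE3C, and in 9 of 9 in untreated cells. The difference was under 1 percentage point at SMARCC1 in both libraries. It was widest at RNF213 after DHT, at 24.0 points, against 4.30 points in untreated cells. Summed over the genes, the share covered in bin 1 was 0.838 times that of the rest after DHT and 0.852 times in untreated cells, with counting intervals of 0.549 to 1.28 and 0.567 to 1.28. With 5 bins in place of 10, the first bin was covered to 0.635 times the rest after DHT (0.456 to 0.884). In untreated cells it was covered to 0.660 times the rest (0.478 to 0.909), and neither interval included 1. With narrower bins of 5% of the gene body, the first was covered to 0.937 times the rest after DHT (0.567 to 1.55). The untreated value was 0.912 (0.514 to 1.62), and both of these intervals included 1. With gene bodies extended by 5 kb at each side the bin 1 values were 0.640 after DHT (0.411 to 0.996) and 0.635 in untreated cells (0.401 to 1.004). With gene bodies trimmed by 5 kb at each side they were 0.780 (0.495 to 1.23) and 0.664 (0.433 to 1.02). The genes were chosen by their blocks, which come from these same peaks. The block began 246 kb after the start at LIMCH1 and 203 kb after it at MAST2. It began 74.2 kb after the start at SMARCC1, 55.7 kb at IGF2R, 46.5 kb at TRRAP, 41.8 kb at RNF213 and 22.1 kb at UBE3C. At MIA3 it began 3.59 kb after the start, and at NCAPD3 22.6 kb before it. Every block ran past the gene end, from 2.98 kb at LIMCH1 to 68.8 kb at MIA3. Apart from NCAPD3, each block left out the start of its gene, so the choice itself can favour later bins. The choice and the profile thus share the same peaks, and no support is drawn from these intervals. No annotation of hg19 was at hand, so the same profile over all other genes was not computed, and nothing here sets these genes apart from others.

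**Figure D3:**
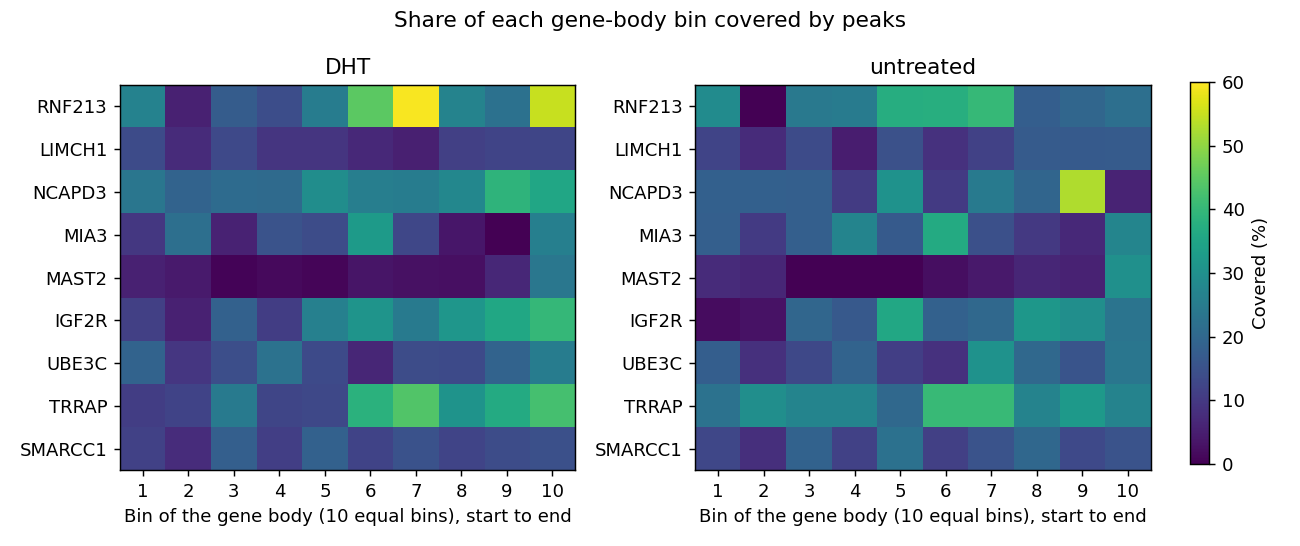
Share covered by peaks in percent (colour) in 10 equal bins of each gene body, numbered from start to end on the x axis, with DHT on the left and untreated on the right. RNF213, IGF2R and TRRAP brighten in bins 6 to 10 after DHT, and MAST2 exceeds 7.30% in bin 10 only.

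Sequence outside the genes was mostly less covered, apart from the downstream flanks of MAST2 and MIA3. The genes were chosen for the long blocks over them, so this contrast is only described. Within 50 kb upstream the median over the genes was 3.57% after DHT and 4.10% in untreated cells, and within 50 kb downstream 10.1% and 6.29%. MAST2 and IGF2R had no peak within 50 kb upstream in either library. RNF213 and NCAPD3 were covered upstream as well, with 19.8% and 17.0% after DHT and 15.8% and 18.1% in untreated cells. Downstream of TRRAP coverage was 20.8% after DHT and 28.3% in untreated cells, against 26.5% and 29.4% in its body. Downstream of MAST2 coverage was 12.4% after DHT and 17.5% in untreated cells, above the 5.16% and 6.24% of its body. Downstream of MIA3 it was 17.5% after DHT and 18.9% in untreated cells, beside 14.2% and 18.6% in its body. These flanks can hold other genes, which were not placed on hg19.

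Peaks in the 9 genes were more often overlapped by a peak of the other library than peaks elsewhere. Of DHT peaks, 220 of 375 (58.7%, 95% Wilson interval 53.6% to 63.5%) met an untreated peak, against a background of 48.5% of all DHT peaks. Of untreated peaks, 208 of 338 (61.5%, 56.2% to 66.6%) met a DHT peak, against 52.3% of all. Since the genes were chosen by blocks joined from the peaks of both libraries, this is a description. In the higher-scoring 50% of each list the share of DHT peaks was 48.5% in the genes, beside 47.0% of all. For untreated peaks it was 57.8%, beside 51.0% of all. Among DHT peaks under 500 bp wide, 52.6% (45.9% to 59.2%) of those in the genes and 41.5% of those elsewhere were overlapped. The corresponding untreated shares were 44.2% (36.8% to 51.8%) and 40.5%. At 500 to 1000 bp the shares in the genes and elsewhere were 64.1% and 64.8% for DHT peaks, and 73.1% and 71.8% for untreated peaks. Over all 9 genes 38.6% of the sequence covered in either library was covered in both, against 32.5% over all nuclear peaks. Gene by gene that part ran from 30.8% at MAST2 to 49.7% at TRRAP.

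At a scale of 10 kb, 2-fold differences were not more frequent in these genes than elsewhere in the lists as deposited. The genes were chosen by blocks joined from these same peaks, so no support is drawn from the shares. Of 108 tiles with at least 10% covered in either library, 9 were at least 2-fold higher after DHT and 14 at least 2-fold lower, which is 8.33% and 13.0%. Among all 28992 such tiles the shares were 15.3% and 14.0%. At 1.5-fold 24 tiles were higher and 30 lower, beside 24.6% and 26.4% of all tiles, and at 4-fold 1 was higher and 1 lower, beside 6.21% and 3.56%. Of the 9 higher tiles, RNF213 and IGF2R held 3 each, LIMCH1 held 2 and NCAPD3 held 1. Of the 14 lower tiles MAST2 held 3, LIMCH1, TRRAP and SMARCC1 held 2 each, and the other 5 genes held 1 each. In RNF213 the tile from 125 to 135 kb after the start held 6797 bp of DHT peaks and 3005 bp of untreated peaks. In IGF2R the tile from 110 to 120 kb held 4801 bp of DHT peaks and 1969 bp of untreated peaks. The lower tile of RNF213, from 35 to 45 kb, held 1068 bp of DHT peaks and 3050 bp of untreated peaks. That of IGF2R, from 50 to 60 kb, held 374 bp of DHT peaks and 1333 bp of untreated peaks.

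The deposited score, a value per peak from the authors whose scale is not stated, was read within each list, except where both lists were limited to scores of at least 100, which assumes that they share a scale. In the genes 127 of 375 DHT peaks (33.9%) and 91 of 338 untreated peaks (26.9%) were in the highest-scoring 25% of their list. Median scores were 96.7 in the genes against 85.7 over all DHT peaks, and 86.7 against 81.2 over all untreated peaks. A single peak, the DHT peak of TRRAP, scored 500 or more.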

How the data were processed

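H3K36me3 ChIP-seq peaks of 2 LNCaP libraries were used, 1 with DHT and 1 untreated. Each list holds positions and a score per peak, as deposited by the authors. Peaks were called per library with MACS, per the peak names, on hg19, per the file names. Which settings, control, aligner and depth were used is not given in the sources used here. Scores run from 50 to 3100.

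Peaks on chromosomes 1 to 22, X and Y entered, and mitochondrial peaks (3 and 4) were set aside. Gene bodies came with the rule, and direction of transcription from RefSeq promoters (GRCh38.p14) or, for TRRAP and SMARCC1, textbook knowledge. Covered length, overlap of at least 1 bp (equal to bedtools 2.31.1), joined blocks (gap 5 kb), 10 equal bins per gene body and 10 kb tiles were computed with NumPy 2.4.6. Peaks at an edge count in full in peak numbers and widths, and by their inner part in covered length. Share intervals are Wilson, and ratio intervals use squared peak widths as a Poisson variance. Functions were checked on simulated data (8 of 8 checks passed). All 9 genes are named, with their widest and highest-scoring peaks, widest gaps and 2-fold tiles chosen for description. Genes, lists and settings were chosen with earlier results of these data known.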

Additional observations from a re-analysis of the deposited data

How the results depend on the processing

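No paired analysis was possible because each condition has 1 library. Single-library runs were added after the data were seen. The summed ratio of covered length, 0.976, stayed within its counting interval under the 7 list and boundary settings, but ran from 0.958 to 1.16 and so on both sides of 1. Of the 9 genes, 5 (IGF2R, LIMCH1, MIA3, NCAPD3 and RNF213) kept their side of 1 under all 7, and UBE3C crossed under 3. Block length rested on the joining distance and on weaker peaks. Its median over the genes, 99545 bp, was 10129 bp joined at 2 kb, 29702 bp in the higher-scoring 50% of each list, 21115 bp with scores of at least 100, 46097 bp for DHT peaks alone and 34990 bp for untreated peaks alone. Overlapped DHT peaks, 58.7%, were 48.5% in the higher-scoring 50%, 45.9% at scores of at least 100, 65.8% with lists joined at 1 kb and 84.4% with a gap of 5 kb, beside 47.0%, 43.5%, 50.7% and 58.4% of all DHT peaks. Overlapped untreated peaks, 61.5%, were 53.6% when 50% of the peak had to be covered, 70.0% and 90.0% with those gaps, beside 45.5%, 55.7% and 62.9% of all untreated peaks. The share covered in bin 1 against the rest in untreated cells, 0.852, was 0.525 at scores of at least 100. Tiles higher and lower after DHT, 9 and 14, were 24 and 30 at 1.5-fold, 1 and 1 at 4-fold (of 108). They were 37 and 43 of 206 in tiles of 5 kb (beside 22.3% and 21.6% of all tiles), 1 and 4 of 55 in tiles of 20 kb (10.7% and 7.38%), 16 and 24 of 114 with lists joined at 1 kb (22.0% and 19.1%), 28 and 28 of 124 with a gap of 5 kb (33.9% and 24.4%), 22 and 9 of 69 at scores of at least 100 (25.2% and 21.2%), and 17 and 18 of 82 in the higher-scoring 50% (20.2% and 21.4%). In the main setting lower tiles outnumbered higher ones, but their share, 13.0%, was near the 14.0% of all tiles. Higher tiles made up 8.33%, beside 15.3% of all tiles. Nothing is read from either share, because the genes were chosen from these same peaks. The order of the 2 counts turned at scores of at least 100, and they were equal at 4-fold and with a gap of 5 kb. The cause of these shifts was not tested, except that fold, tile size and joining distance set the counts by construction. The depth of both libraries is unknown.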
